A study of Mus musculus with 9 samples.

Results

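Gene expression in whole liver was compared between 3 old mice given a hairpin against Fabp4 and 3 old mice given a control hairpin. These 6 libraries, of the 9 in the series, were chosen by their labels: OE1, OE3 and OE6 for the hairpin group and OC1, OC2 and OC5 for the control group. All 6 animals were male C57BL/6 mice, 20 months old, with no change to their own genome described. At 14 months each had received adeno-associated virus 9 (AAV9, a gene delivery vector) at a dose of 4e+11 viral genomes, partly through the tail vein and partly straight into the subcutaneous white fat. One virus encoded a short hairpin RNA (shRNA, an RNA that is processed to silence a matching transcript) against Fabp4, and the other encoded a negative control shRNA. The labels describe 15 mice in each of these groups, and 3 libraries of each group were sequenced. The sources used here do not give the promoter that drives the hairpin, its sequence or the cell types that took up the virus. The sources do not say how the 3 livers of each group were chosen or at what time of day they were collected. All p-values measure the spread between these 6 libraries. The labels do not describe each sample as a separate animal, and each library is taken here as the liver of a separate mouse.

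FABP4 is a small carrier of fatty acids that is abundant in fat cells and also made by macrophages and by the lining of capillaries. Fat cells release it during lipolysis, and circulating FABP4 is known to act on glucose production in the liver. Hepatocytes themselves use another carrier, FABP1, as their main fatty acid binding protein. Fatty acids that reach the liver are oxidised in mitochondria and peroxisomes under the control of the nuclear receptor PPARalpha, or are built into triglyceride. Cholesterol synthesis is controlled separately, by the transcription factor SREBP2.

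Total counts ran from 14609431 to 17125440 per library, and the detection floor of 3 counts stood for 0.175 to 0.205 CPM (a gene's count scaled to a common library total). Albumin took 5.34% to 8.32% of the counts, and the summed level of 12 hepatocyte markers was 111799, 177981 and 145300.0 CPM in control and 97110.0, 114425 and 103274 CPM in the hairpin group. The RNA extraction text of the labels names NRVMs, a usual abbreviation for heart muscle cells of newborn rats, whereas the tissue field says liver. Of 10 heart muscle markers, 5 (Myh6, Myh7, Myl2, Nppa and Nppb) had no count in any library, and all 10 summed to 0.72 to 3.12 CPM. Mitochondrially encoded transcripts varied widely, from 4.42% to 14.5% of counts in control and from 4.15% to 8.47% in the hairpin group. Labelled replicate 3 held more skeletal muscle RNA than the others: the actin gene Acta1 had 748 counts there and 0 to 4 counts elsewhere, and 21 skeletal muscle markers summed to 55.7, 37.4 and 33.2 CPM in control and 45.1, 162 and 24.3 CPM in labelled replicates 1, 3 and 6. The labels name no batch or sequencing run.

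Fabp4 (ENSMUSG00000062515, chromosome 3, 10204088 to 10208576, GRCm38, minus strand) did not separate the groups. Its level was 7.45, 14.5 and 11.4 CPM in control replicates 1, 2 and 5. Labelled Fabp4 shRNA replicates 1, 3 and 6 held 11.6, 4.03 and 8.04 CPM. Replicate 3 was below every control, replicate 6 was above the lowest control, and replicate 1 was above 2 of the 3 controls. The means were 11.1 ± 3.51 CPM (SD, n = 3) in control and 7.90 ± 3.798 CPM (SD, n = 3) in the hairpin group. On the log2 scale the difference of the hairpin group from control was -0.49 ± 0.39 (standard error), with a 95% interval of -1.35 to 0.36. The adjusted p was 0.874 in edgeR's quasi-likelihood test, adjusted by Benjamini-Hochberg over all genes. Permuting the 6 libraries exactly gave a two-sided p = 0.5, and 3 livers against 3 allow no p under 0.1. A difference in Fabp4 RNA was thus not detected at this number of livers. Without replicate 1 of the hairpin group the log2 difference was -0.87 (edgeR, unadjusted p = 0.0359, not called after adjustment). Replicate 1 held the most Fabp4 of its group, so leaving it out could only lower the group's mean. That p-value is therefore no evidence of a knockdown. Fabp4 lay within the control range in replicates 1 and 6, so its level does not bear out the label there. All 3 libraries are therefore named below as labelled Fabp4 shRNA, and directions are between labels, not between measured levels of Fabp4. Knockdown in the injected fat and the protein itself were not analysed here.

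Fat cell markers were sparse in these livers. Adipoq, which defines fat cells, had 0, 13 and 0 counts in control and 4, 0 and 0 counts in labelled replicates 1, 3 and 6, and Plin1 had counts in control replicate 2 alone. All 10 fat cell markers summed to 876, 893 and 528 CPM in control and 1123, 456 and 115 CPM in the labelled libraries. Most of that sum in 5 of the 6 libraries was Car3 (carbonic anhydrase 3), which liver also expresses, at 836, 770.1 and 488 CPM in control and 1059, 389 and 45.6 CPM in the labelled libraries. Their part in the level of Fabp4 was not tested. Among the other fatty acid binding proteins, Fabp1 was at 2092, 2477 and 2015 CPM in control and 2394, 3264 and 5127 CPM in the labelled libraries, a log2 difference of 0.71 ± 0.32 (edgeR, unadjusted p = 0.0496), with labelled replicate 1 inside the control range. Fabp5 and Fabp2 overlapped between the groups, and Fabp7 did not, at 5.35, 4.30 and 3.25 against 2.86, 1.64 and 2.99 CPM.

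**Figure D1:**
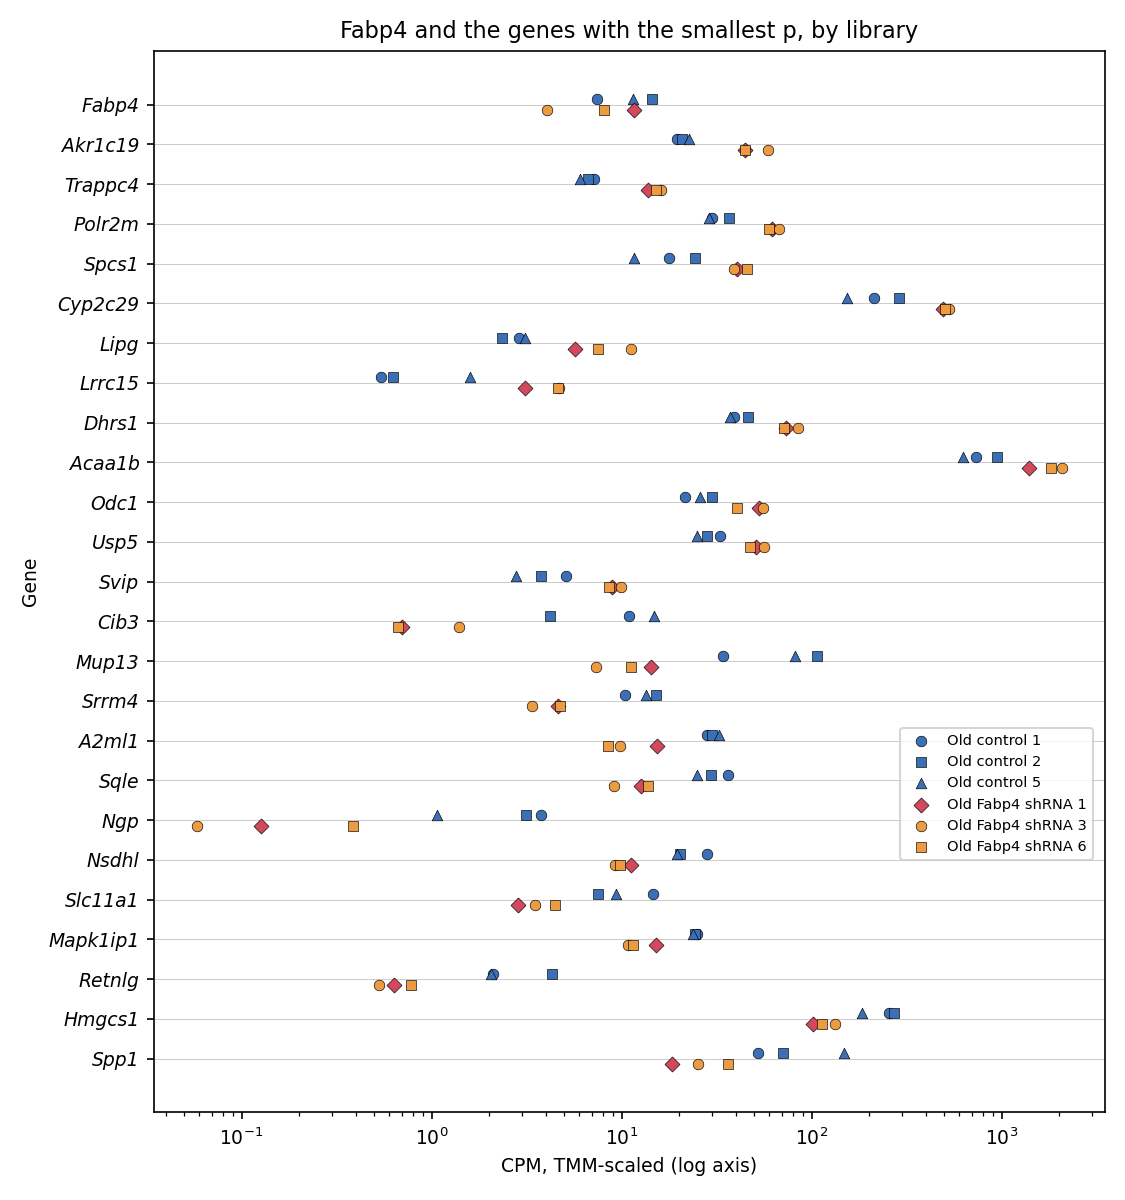
Level of Fabp4 and of the 12 higher and 12 lower protein-coding genes with the smallest p, in TMM-scaled CPM on a log axis, with 1 point for each of the 6 libraries. The groups overlap for Fabp4 and are apart for the other 24 genes, where the red diamond of labelled replicate 1 lies with replicates 3 and 6. These genes were picked by a test that includes replicate 1, which favours such a pattern.

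Across all genes the question was what differs in the old liver after the Fabp4 hairpin. The genes with the smallest p were Cib3 and Mup13 on the lower side and Akr1c19 and Trappc4 on the higher side. Library sizes were scaled by TMM (trimmed mean of M-values), which takes most genes as not differing. None of the 13660 genes tested with edgeR passed a Benjamini-Hochberg adjusted p of 0.05 in either direction (0% higher and 0% lower), and the smallest adjusted p was 0.431. With no adjustment, 427 genes were higher (3.13% of those tested) and 449 lower (3.29%) at p under 0.05. The 3 labelled libraries lay wholly above the 3 controls for 849 genes (6.22%) and wholly below them for 745 (5.45%). DESeq2, a second count model, called 9 genes higher (0.0588% of the 15303 it tested) and 16 lower (0.105%). Of these, 7 of the 9 and 9 of the 16 are among the 24 genes described next, and Acadvl, Camp, Igha and Cxcl1 come further on. The others, named after their values were seen, are Rab5if on the higher side and S100a9, the pseudogenes Cyp21a2-ps and Gm11843 and the mitochondrial tRNA gene mt-Tw on the lower side. Since the edgeR test passed no gene, the values below are descriptions of these 6 livers, and an unadjusted p is given only to show the size of a difference against its spread. When libraries were scaled by their totals alone, the median log2 difference of all genes moved from -0.01 to 0.13 and 80.1% of the genes at an unadjusted p under 0.05 were on the higher side, against 48.7% with TMM scaling. Without labelled replicate 1 859 higher and 893 lower genes were counted at unadjusted p under 0.05, and without control replicate 5 there were 213 higher and 378 lower.

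**Figure D2:**
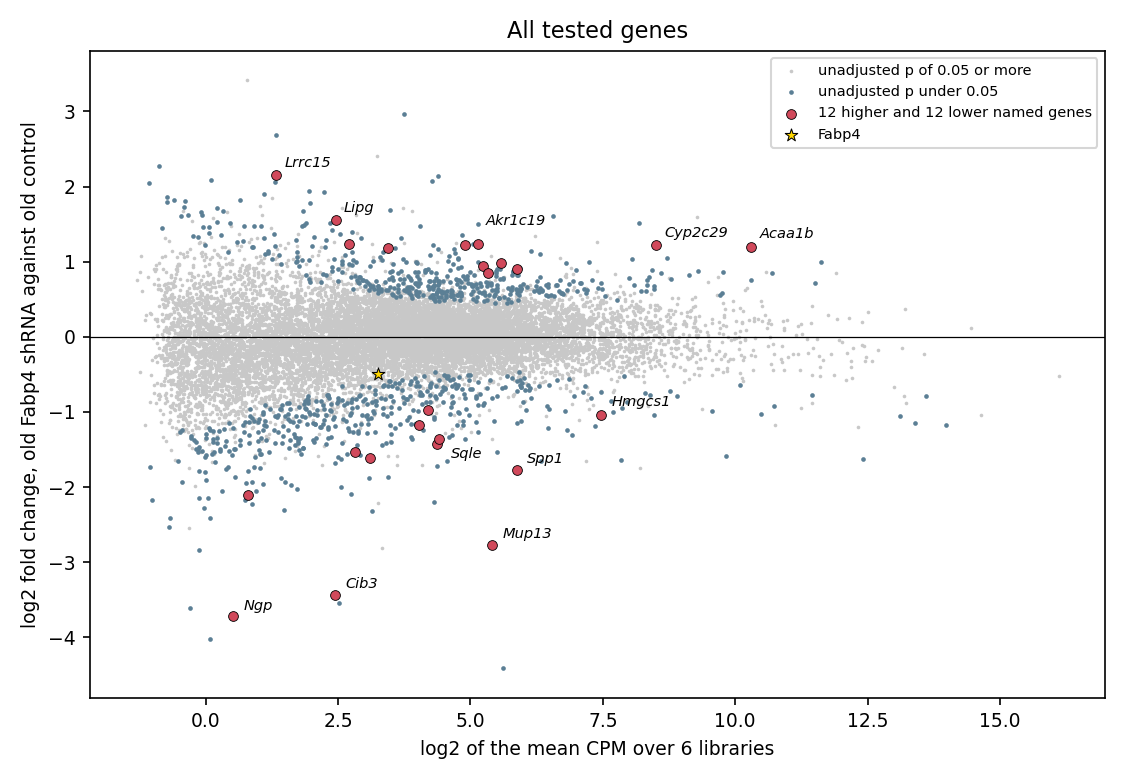
Log2 fold change of labelled Fabp4 shRNA over control against log2 of the mean CPM, with 1 point for each of the 13660 tested genes and names for 11 of the 24 genes with the smallest p. Fold changes spread about 0 at every level, and Fabp4, drawn as a star, sits at -0.49 among genes that do not stand out.

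Of the 12 higher genes, the one with the smallest p was Akr1c19, an aldo-keto reductase (chromosome 13, 4228700 to 4252843, GRCm38). It was at 19.7, 20.9 and 22.6 CPM in control replicates 1, 2 and 5 and 44.5, 59.2 and 44.8 CPM in labelled replicates 1, 3 and 6. Every labelled library was far above every control, and the log2 difference was 1.23 ± 0.22, with an adjusted p of 0.431 in edgeR. Cyp2c29, a cytochrome P450 that makes epoxides of fatty acids, was at 212, 288 and 154 CPM in control and 495, 531 and 502 CPM in labelled replicates 1, 3 and 6, which lay close together. The difference was 1.22 ± 0.28 on the log2 scale. Acaa1b, the peroxisomal thiolase that takes the last step of each round of fatty acid oxidation, was at 731, 948 and 625 CPM in control and 1391, 2069 and 1830.1 CPM in the labelled libraries (1.20 ± 0.29). Lipg, endothelial lipase, was low in all livers, at 2.89, 2.34 and 3.12 against 5.72, 11.3 and 7.54 CPM, with no overlap. Odc1, the first enzyme of polyamine synthesis, differed by 0.94, and the short-chain dehydrogenase Dhrs1 by 0.90. The other higher genes were Trappc4 (vesicle tethering, 1.18), Polr2m (an RNA polymerase II associated protein, 0.98), Spcs1 (signal peptidase, 1.23), Usp5 (a deubiquitinase, 0.84), Svip (an inhibitor of endoplasmic reticulum associated degradation, 1.23) and the membrane protein Lrrc15 (2.16). Trappc4, Spcs1 and Acaa1b overlap annotated genes on the other strand (Rps25, Glt8d1 and Dlec1), and the sources used here do not say whether strand was used in counting. Akr1c19, Cyp2c29 and Odc1 overlap annotated genes on the same strand (Marcksl1-ps4, Cyp2c53-ps and Gm22748). Reads of these could be shared whatever the strand setting.

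On the lower side the widest gaps were in Cib3 and Mup13. Cib3, a calcium and integrin binding protein, was at 11.0, 4.22 and 14.8 CPM in control and 0.699, 1.40 and 0.666 CPM in the labelled libraries, a log2 difference of -3.43 ± 0.52. The control values were widely spread, and still the lowest control, replicate 2, was well above the highest labelled library, replicate 3. Mup13, a major urinary protein, was at 34.3, 107 and 82.0 CPM in control and 14.3, 7.30 and 11.2 CPM in the labelled libraries (-2.76 ± 0.42). The Mup genes are near-identical copies, so reads may have been shared among them, and this value is uncertain. Without control replicate 1 it was the one gene called by edgeR (adjusted p = 0.0482). Other Mup genes overlapped between the groups: Mup7 was at 2201, 1828 and 2253 CPM in control against 1874, 5967 and 4708 CPM, and Mup20 at 1867, 2482 and 5171 against 1541, 807 and 2583 CPM. Srrm4 (a splicing factor best known from neurons, -1.61 ± 0.29) and A2ml1 (a protease inhibitor of the alpha-2-macroglobulin family, -1.43 ± 0.27) were lower in every labelled library than in every control. A2ml1 had close controls, at 28.0, 30.0 and 32.7 CPM, against 15.4, 9.76 and 8.49 CPM. Slc11a1, the metal transporter of phagosomes in macrophages and neutrophils, differed by -1.53, and Mapk1ip1 by -0.97. The remaining 6 of the 12, Sqle, Nsdhl, Hmgcs1, Ngp, Retnlg and Spp1, belong to the groups described below. Cib3, Mup13, A2ml1, Srrm4 and Slc11a1 were among the genes that DESeq2 called.

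Of 22 tested fatty acid oxidation genes, 21 had a positive log2 difference, with a median of 0.32 where that of all genes was -0.01. Of the 22, 4 were higher and 0 lower at unadjusted p under 0.05, where 3.13% of all genes were higher. The groups did not overlap for 7 higher members, where the background is 6.22%. Acadvl, the very long chain dehydrogenase that opens mitochondrial oxidation, was at 52.2, 56.2 and 31.5 CPM in control and 66.7, 241 and 118 CPM in the labelled libraries (1.60 ± 0.44). Acadvl overlaps Dvl2, so reads could be shared. Labelled replicate 1 was only a little above the highest control and replicate 3 was the highest by far. Hadha, the alpha subunit of the trifunctional protein, was at 186, 322 and 222 against 327, 617 and 406 CPM (0.89 ± 0.31), with replicate 1 again nearest to the controls. Acads, the short chain dehydrogenase, was at 109, 122 and 74.5 against 137, 182 and 148 CPM (0.61 ± 0.26). Acaa2, the mitochondrial thiolase, had all labelled libraries above the controls and close together, 673, 877 and 672 against 1024, 1000.3 and 1019 CPM. Cpt1a, the gate of fatty acids into mitochondria, did not separate, at 359, 706 and 610.0 against 672, 694 and 587 CPM. Ehhadh, the peroxisomal bifunctional enzyme, was at 375, 1759 and 1117 against 1208, 2604 and 2101 CPM, with control replicate 1 far below the other 5 libraries. The count of 4 became 2 without control replicate 1, 2 without control replicate 5, 2 without labelled replicate 3 and 7 without control replicate 2, and the median lay between 0.20 and 0.56 when each library was left out. These counts without 1 library, here and below, were chosen after the data were seen.

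Targets of PPARalpha and fasting were higher in part. Of 18 tested, 3 had an unadjusted p under 0.05 on the higher side and 0 on the lower, where 3.13% and 3.29% of all genes did, and the median was 0.37. The 3 were the acyl-CoA thioesterases Acot1, Acot4 and Acot3, which release fatty acids from coenzyme A and are near-identical neighbours, so that reads could be split among them. Acot1 was at 68.0, 245 and 139.9 CPM in control and 291, 488 and 515 CPM in the labelled libraries (1.51 ± 0.43), with every labelled library above the controls. Acot4 was at 81.3, 88.5 and 98.0 against 118, 238 and 138 CPM (0.88 ± 0.29). Ppara itself was at 26.6, 39.2 and 28.6 against 35.1, 114 and 34.7 CPM, where labelled replicate 3 alone stood high. Another known target, Cyp4a14, a fatty acid omega-hydroxylase, was at 833, 4514 and 2884 against 4624, 5988 and 4288 CPM, where control replicate 1 was far below the other 5 libraries (log2 difference 0.86). Pdk4 and Fgf21, which respond to fasting, were lowest in labelled replicate 1 and highest in replicate 3. The count of 3 became 2 without labelled replicate 3 and 2 without control replicate 1. It was 5 without labelled replicate 1, 5 without control replicate 2, 4 without labelled replicate 6 and 3 without control replicate 5. The median lay between 0.18 and 0.58 when each library was left out.

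Genes of fat uptake and lipoprotein handling went both ways. Pltp, the phospholipid transfer protein, was at 45.7, 40.5 and 33.1 CPM in control and 26.2, 16.7 and 11.8 CPM in the labelled libraries (-1.13 ± 0.29), with no overlap. Lpl, lipoprotein lipase, differed by -0.72, and the fatty acid transporter Slc27a4 by 0.96. Of 15 tested members, 1 higher and 3 lower had an unadjusted p under 0.05. Over all genes 3.13% were higher and 3.29% lower at that p, so the counts of 1 in this paragraph are near the background. Among 14 apolipoproteins, Apoa1, the main protein of HDL, was at 14987, 18396 and 14080.0 CPM in control and 8875, 8156 and 10491 CPM in the labelled libraries (-0.79 ± 0.29), while Apom, another HDL protein, was at 69.1, 29.9 and 33.9 against 63.8, 114 and 115 CPM (1.14 ± 0.35), with overlap. At an unadjusted p under 0.05, 1 apolipoprotein was higher and 2, Apoa1 and Apoc2 (-0.95), were lower, and 4 were lower without control replicate 1. Of 20 genes of fatty acid and triglyceride synthesis, 1 was higher and 0 lower at unadjusted p under 0.05, with a median of 0.00. Without labelled replicate 1 these were 3 higher and 4 lower, where 6.1% and 6.34% of all genes were. Of 15 lipid droplet genes, Fitm2 alone had an unadjusted p under 0.05 (0.70 ± 0.26). Without labelled replicate 1 that count was 6 higher and 1 lower, without control replicate 2 it was 3 higher, and without any one of the other 4 libraries it was 0.

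Cholesterol synthesis held 3 of the 12 genes with the smallest p on the lower side. The pathway runs from acetyl units through HMG-CoA, mevalonate and squalene to cholesterol. Hmgcs1, which makes HMG-CoA, was at 257, 273 and 184 CPM in control replicates 1, 2 and 5 and 102, 132 and 114 CPM in labelled replicates 1, 3 and 6 (-1.04 ± 0.25). Sqle, which makes squalene epoxide, was at 36.5, 29.7 and 25.0 against 12.6, 9.17 and 13.8 CPM (-1.36 ± 0.25, adjusted p = 0.431 in edgeR). Nsdhl, which acts late in the pathway, was at 28.2, 20.4 and 19.5 against 11.2, 9.23 and 9.76 CPM (-1.18 ± 0.25). In all 3 genes every labelled library was below every control, replicate 1 included. Dhcr7, the final reductase, was at 37.1, 22.6 and 21.7 against 19.8, 15.3 and 12.98 CPM (-0.76 ± 0.28), also without overlap. Cyp51, the lanosterol demethylase, differed by -0.57 ± 0.26. Of 23 tested members, 6 were lower and 0 higher at unadjusted p under 0.05, where 3.29% of all genes were lower, and 5 were wholly below the controls (background 5.45%), the fifth being Stard4, a sterol carrier. The median was -0.27, and 19 of 23 were negative. Msmo1 was at 82.5, 75.6 and 54.3 against 73.7, 23.5 and 26.8 CPM, so that replicates 3 and 6 lay below the controls and replicate 1 among them. The count of 6 became 3 without control replicate 1 and lay between 4 and 7 without any other library.

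SREBP2 binds a sterol regulatory element. The promoter windows of RefSeq (GRCm38.p6), from 250 bases before to 50 after each start site, were searched on both strands for the letters TCACNCCAC. Of the 16 cholesterol genes with a window, 1 held a match, Hmgcs1, where 1.44% of all 27025 genes with a window held one. The stretch is shown because Hmgcs1 is the gene of this pathway with both high counts and no overlap between the groups. It lies at chr13:119690174-119690262 on the plus strand, the match is in capitals, and its end is 128 bases before the start site.
Hmgcs1: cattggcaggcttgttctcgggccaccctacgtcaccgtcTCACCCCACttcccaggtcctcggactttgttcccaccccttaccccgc
A match is a description of these letters, and windows without one may hold other forms of the element.

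Markers of blood and immune cells were lower in the labelled libraries in several lists. In bulk tissue, fewer cells of a type and less RNA per cell cannot be told apart. Of 14 neutrophil markers, 10 had enough counts to be tested, and 7 of these were lower and 0 higher at unadjusted p under 0.05 (background 3.29% lower). The median was -2.21, and 6 were wholly below the controls. Ngp, a granule protein, was at 3.79, 3.13 and 1.06 CPM in control and 0.127, 0.0584 and 0.388 CPM in the labelled libraries (-3.72 ± 0.74). The values of labelled replicates 1 and 3 are under the floor of 3 counts, so the fitted difference depends on the prior count. Elane, neutrophil elastase, was at 2.16, 1.80 and 0.863 against 0.318, 0.234 and 0.111 CPM, and Retnlg at 2.10, 4.30 and 2.06 against 0.635, 0.526 and 0.776 CPM, both without overlap. Camp, the cathelicidin, was listed at 0 in labelled replicates 1 and 3 and at 0.333 CPM in replicate 6, against 2.64, 2.501 and 0.863 CPM in control. S100a9 was at 20.0, 17.9 and 6.11 against 1.08, 1.69 and 5.99 CPM, so that labelled replicate 6 was next to the lowest control. All 14 markers summed to 69.96, 58.2 and 21.2 CPM in control and 10.4, 7.70 and 18.9 CPM in the labelled libraries, which puts labelled replicate 6 and control replicate 5 side by side. The count of 7 lay between 6 and 9 when each library was left out.

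Spp1, osteopontin, a matrix protein made by recruited lipid-associated macrophages and by bile duct cells, was at 52.0, 70.6 and 149 CPM in control and 18.4, 25.1 and 36.3 CPM in the labelled libraries (-1.77 ± 0.41), with no overlap. Of 12 bile duct markers 8 were tested and all 8 were negative. All 12 summed to 41.0, 42.4 and 48.9 CPM in control and 25.0, 35.3 and 25.0 CPM in the labelled libraries, with every labelled library below the controls, and their part in the Spp1 value was not tested. Itgax, the integrin CD11c, was at 2.52, 2.501 and 4.52 against 1.08, 0.818 and 1.77 CPM and Ccr2, the receptor of recruited monocytes, at 3.97, 5.24 and 6.64 against 1.46, 3.04 and 3.27 CPM, both apart. Of 15 recruited macrophage markers, 5 were lower and 0 higher at unadjusted p under 0.05, where 3.29% of all genes were lower, with a median of -0.68. Lyz2, lysozyme, was at 149, 66.3 and 47.2 against 39.8, 39.2 and 54.5 CPM. Trem2 and Gpnmb, which also mark such cells, overlapped between the groups. The count was 2 without labelled replicate 1, 3 without labelled replicate 3, 3 without control replicate 1 and 3 without control replicate 5. The 14 markers of resident Kupffer cells summed to 1077, 383 and 397 CPM in control and 380.3, 345 and 416 CPM in the labelled libraries, and the high value was that of control replicate 1, while the other 5 libraries overlapped. Clec4f, which defines Kupffer cells, was at 219, 62.0 and 65.0 against 81.2, 28.6 and 57.3 CPM, with overlap. Csf1r, the receptor of macrophage colony-stimulating factor, was at 71.4, 23.8 and 31.0 against 22.7, 16.3 and 22.3 CPM (-1.04 ± 0.38), the one member whose groups did not overlap. The complement gene C1qc differed by -1.27, Vsig4, a complement receptor, by -1.17 and Timd4, a receptor for dying cells, by -1.07. With all libraries 4 of 13 were lower (background 3.29%) and the median was -1.04. Without control replicate 1 the count was 0 and the median -0.17. It was also 0 without labelled replicate 3, 2 without labelled replicate 1, 2 without labelled replicate 6 and 7 without control replicate 5.

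Interferon-stimulated genes were also highest in control replicate 1. Of 35 tested, 33 were negative, 7 were lower and 0 higher at unadjusted p under 0.05 (background 3.29% lower), and the median was -0.80. Control replicate 1 was at least 2-fold above both other controls for 22 of the 35, against 3.04% of all genes. Ifi47, an interferon-induced GTPase, was at 44.4, 22.5 and 30.6 against 16.9, 18.1 and 17.9 CPM (-0.88 ± 0.26), and Mx2 at 37.1, 23.4 and 20.1 against 17.9, 6.25 and 13.8 CPM (-1.09 ± 0.38), both with no overlap. Cmpk2 and Ifit3b, also induced by interferon, differed by -1.10 and -1.33. Oas1g was at 17.1, 1.64 and 2.32 against 2.67, 1.40 and 2.44 CPM, where control replicate 1 stood alone. Without control replicate 1 the median was -0.16, with 1 gene lower and 1 higher. Labelled replicate 1 stood at least 2-fold above replicates 3 and 6 for 8 of the 35, against 5.23% of all genes. Ifit1 was at 71.3, 33.8 and 38.7 CPM in control and 70.1, 9.52 and 9.98 CPM in the labelled libraries, so that replicate 1 lay with the controls and replicates 3 and 6 far below. Without labelled replicate 1 the list had 11 lower genes and a median of -1.12, and without control replicate 2 it had 19 lower genes. The count was 3 without labelled replicate 3 and 2 without labelled replicate 6.

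Antigen presentation, antibody and chemokine genes were also lower in part. All 19 tested antigen presentation genes were negative, with a median of -0.44, and 5 had an unadjusted p under 0.05, where 3.29% of all genes were lower. B2m, the light chain of MHC class I, was at 2868, 3834 and 3899 CPM in control and 2292, 1663 and 2255 CPM in the labelled libraries (-0.77 ± 0.28), without overlap. The class II genes H2-Aa, H2-Ab1 and H2-Eb1 differed by -0.76, -0.81 and -0.69, H2-DMa, which helps to load them, was at 6.13, 3.05 and 6.18 against 2.22, 1.81 and 3.66 CPM, and in each of them control replicate 2 lay within the labelled range. The count of 5 became 0 without labelled replicate 3, 0 without control replicate 5 and 2 without control replicate 1. Igha, the heavy chain of IgA, was at 56.8, 39.2 and 106 against 18.0, 19.7 and 31.9 CPM (-1.53 ± 0.37), and Igkc, the kappa light chain, at 183, 156 and 346 against 137, 54.3 and 109 CPM (-1.19 ± 0.39), both without overlap. The IgG heavy chains Ighg1 and Ighg2c differed by -1.40 and -1.17. Of 16 B and plasma cell markers 13 were negative and 3 positive, with a median of -0.52, and 5 were lower (background 3.29%). The count was 2, with 1 higher and a median of -0.12, without control replicate 5, and 3 without control replicate 1. The 16 summed to 432, 326 and 747 CPM in control and 368, 174 and 317 CPM in the labelled libraries, with overlap. Cxcl1, a chemokine that attracts neutrophils, was at 98.8, 173 and 8.50 CPM in control and 5.53, 4.73 and 2.88 CPM in the labelled libraries (-4.41 ± 1.08). Its groups did not overlap, but control replicate 5 was nearer to the labelled libraries than to the other controls. Without that control it was called by edgeR, with a log2 difference of -4.95 and an adjusted p of 0.000427. The chemokines Ccl3 and Cxcl10 differed by -1.65 and -0.98. Vcam1, an adhesion molecule of endothelium, had a smaller and tighter difference, 16.9, 13.7 and 19.4 against 8.83, 7.89 and 9.10 CPM (-0.95 ± 0.25). Of 20 cytokine, chemokine and adhesion genes, 19 were negative and 5 were lower at an unadjusted p under 0.05 (background 3.29%), which became 3 without labelled replicate 3 and 2 without control replicate 1. Of 15 tested T and natural killer cell markers, 0 had an unadjusted p under 0.05 in either direction, and the median was 0.02.

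**Figure D3:**
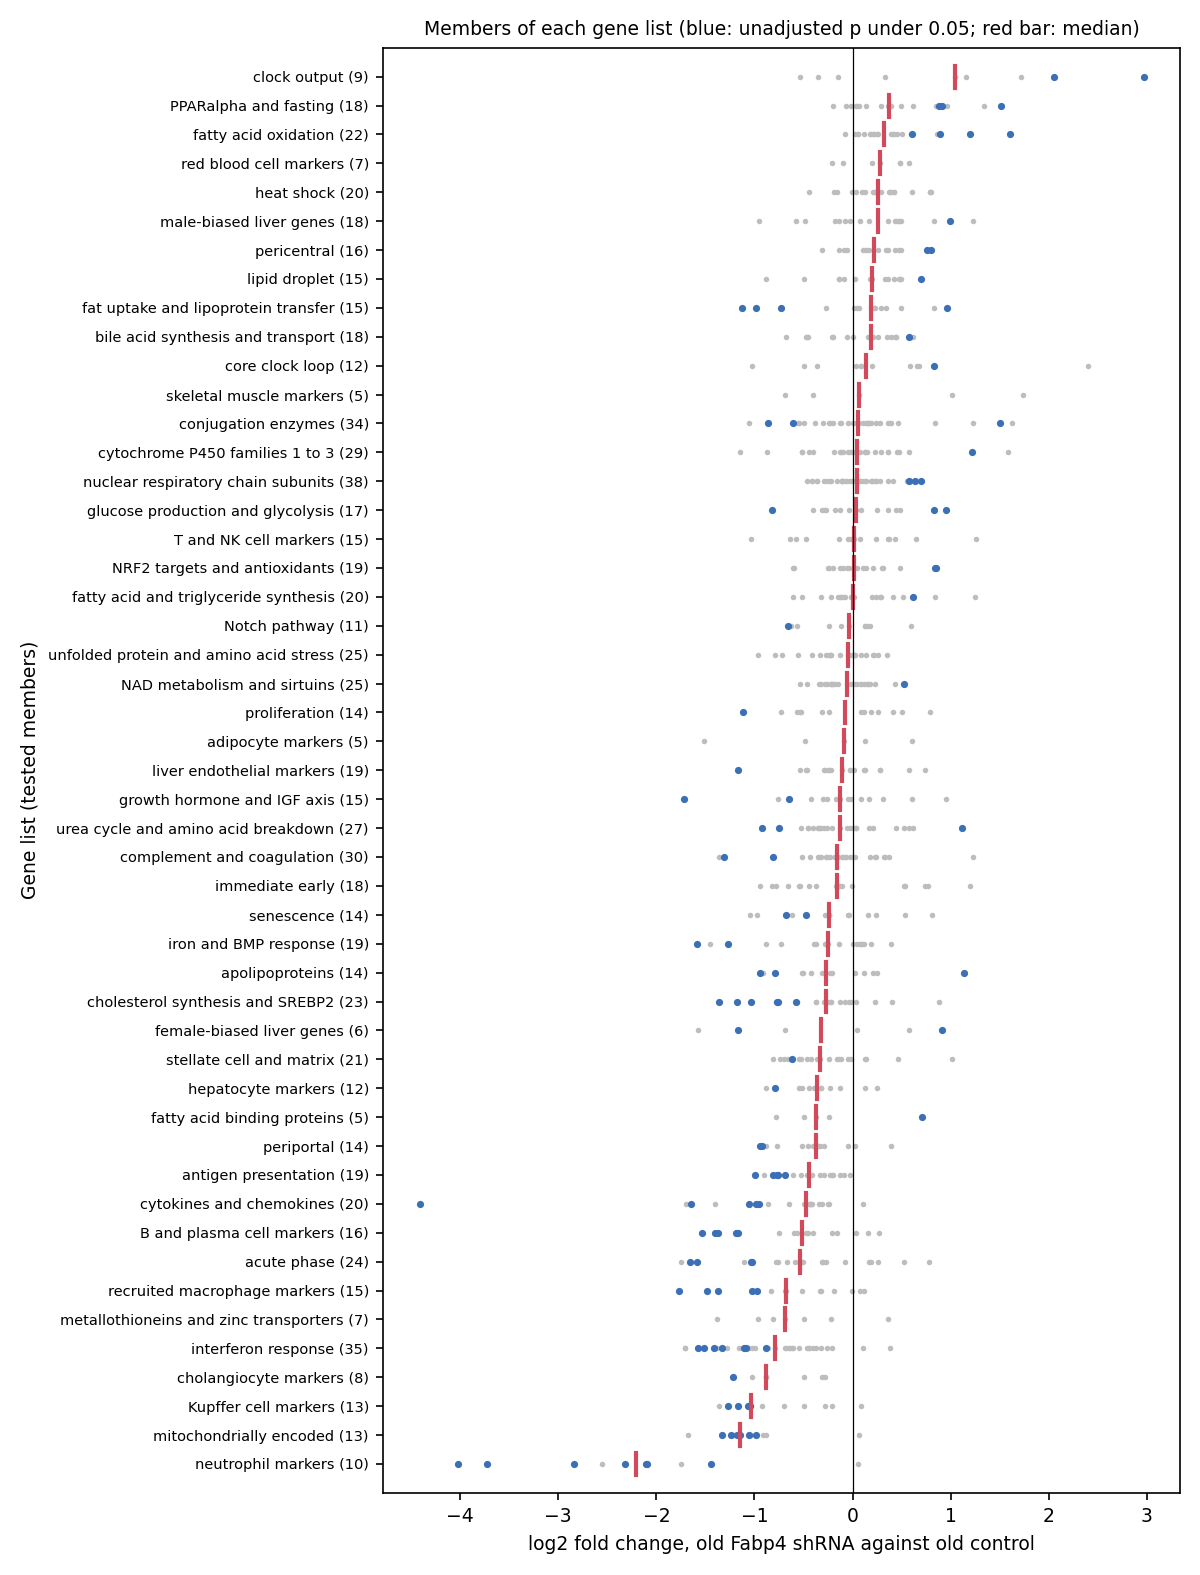
Log2 fold change of labelled Fabp4 shRNA over control for the tested members of each gene list with at least 5 of them, with 1 point per gene, blue points at an unadjusted p under 0.05 and a red bar at the list's median. Neutrophil markers lie lowest, with a median of -2.21, and the clock output list highest, with a median of 1.05 that is -0.14 without labelled replicate 1.

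Respiratory chain genes encoded in mitochondria mostly had a negative log2 difference and those encoded in the nucleus lay near the median of all genes, and the difference between the lists was not tested. Of 13 mitochondrially encoded messages, 12 were negative with a median of -1.15, and 6 were lower at an unadjusted p under 0.05 (background 3.29%). mt-Co1, a subunit of cytochrome oxidase, was at 9013, 42829.6 and 50701 CPM in control and 26643, 13419 and 10034 CPM in the labelled libraries, so that control replicate 1 was the lowest of the 6 and control replicates 2 and 5 the highest. mt-Cytb, the cytochrome b gene, was at 9459, 27117 and 30910.1 against 13499, 8225 and 8195 CPM, with the same 2 controls above all other libraries. mt-Nd3, a subunit of complex I, was the one member whose groups did not overlap, at 18.3, 42.8 and 42.7 against 11.8, 11.0 and 18.3 CPM. mt-Co2 and mt-Nd4 differed by -0.98 and -1.05 on the log2 scale. In total the 13 took 36745, 129163 and 151753 CPM in control and 76842, 37817 and 36176 CPM in the labelled libraries. The count was 12 without control replicate 1, 10 without labelled replicate 1, and 1 without any one of the other 4 libraries. Of 38 tested nuclear genes of the chain, 3 were higher and 0 lower at unadjusted p under 0.05, where 3.13% of all genes were higher, with a median of 0.04. Sdhd, a subunit of succinate dehydrogenase, was at 93.2, 92.0 and 81.8 against 153, 144 and 137 CPM (0.70 ± 0.21), Cox5a at 51.1, 49.2 and 37.1 against 75.0, 69.0 and 69.0 CPM (0.63 ± 0.22) and Ndufv1 at 94.1, 96.5 and 69.1 against 123, 135 and 129 CPM (0.57 ± 0.23), all 3 without overlap. Atp5b, a subunit of ATP synthase, was next, at 0.56. Without control replicate 5 the count was 1.

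Other hepatocyte functions had few genes at an unadjusted p under 0.05, where 3.13% of all genes were higher and 3.29% lower. Of 34 conjugation enzymes, 1 was higher and 2 lower, and without labelled replicate 1 these counts were 5 and 7, where the shares of all genes were 6.1% and 6.34%. Sult1d1, a sulfotransferase, was at 337, 319 and 303 CPM in control and 196, 166 and 166 CPM in the labelled libraries (-0.86 ± 0.23), and Gstm6 at 74.2, 86.3 and 67.1 against 55.0, 48.0 and 46.3 CPM, both without overlap. Ugt1a1, the bilirubin glucuronosyltransferase, was at 14.0, 29.5 and 12.0 against 21.7, 94.5 and 41.2 CPM, where replicate 1 was inside the control range. Ugt1a9 differed by 1.63. Their reads could be split with the other Ugt1a genes, which share exons. Of 29 tested cytochrome P450 genes of families 1 to 3, Cyp2c29 alone was higher and 0 were lower, and 4 were lower without control replicate 1. Of 27 genes for urea synthesis and amino acid breakdown, Arg1 (-0.92 ± 0.30) and Otc (-0.75 ± 0.27) were lower and Bckdha (1.11 ± 0.32) higher. The counts of that list were 2 higher and 4 lower without control replicate 1, and 1 higher and 0 lower without control replicate 5. Arg1, which releases urea, was at 1565, 2220.3 and 2857 against 1251, 987 and 1276 CPM. In gluconeogenesis Fbp1 was at 388, 512 and 312 against 584, 904 and 663 CPM (0.83 ± 0.29), all labelled libraries above the controls. Of the 17 genes of glucose production and glycolysis, 2 were higher and 1 lower at unadjusted p under 0.05, and the enzymes of fructose bisphosphate, Pfkfb1 and Pfkfb3, differed by -0.82 and 0.95. Foxo1, a factor that drives glucose production, differed by 0.49. Among acute phase proteins Cp, ceruloplasmin, was at 2128, 2256 and 1418 against 507, 1274 and 1059.8 CPM (-1.03 ± 0.36), and Hamp, hepcidin, the hormone of iron, at 631, 994 and 2440.2 against 777, 173 and 403 CPM (-1.59 ± 0.63) with overlap. Orm3 differed by -1.66, and Il1rn, the antagonist of interleukin 1 receptor, by -1.02. That list had 4 lower members of 24 (background 3.29%), which became 1 without labelled replicate 3, 1 without control replicate 2, 2 without control replicate 1, 2 without labelled replicate 1 and 7 without control replicate 5.

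The library labelled Fabp4 shRNA replicate 1 departed from its group in more genes than any other of the 6, counting both directions. A departure was counted where a library's log2 CPM, with a prior count of 2, was at least 2-fold above or at least 2-fold below both other libraries of its group. Replicate 1 was above both in 715 genes (5.23% of 13660) and below both in 522 (3.82%). The same counts were 352 (2.58%) and 341 (2.5%) for replicate 3, and 109 (0.798%) and 185 (1.35%) for replicate 6. Among the controls they were 415 (3.04%) and 179 (1.31%) for replicate 1, 144 (1.05%) and 545 (3.99%) for replicate 2, and 224 (1.64%) and 281 (2.06%) for replicate 5. Control replicate 2 thus had slightly more genes below its group than labelled replicate 1 did. The median absolute log2 difference per gene was 0.53 between labelled replicates 1 and 3, 0.40 between 1 and 6, and 0.35 between 3 and 6. Labelled replicate 1 was nearer to control replicate 5, at 0.36, than to either library of its own group. Labelled replicate 6 was likewise nearer to control replicate 2, at 0.33, than to either library of its own group.

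**Figure D4:**
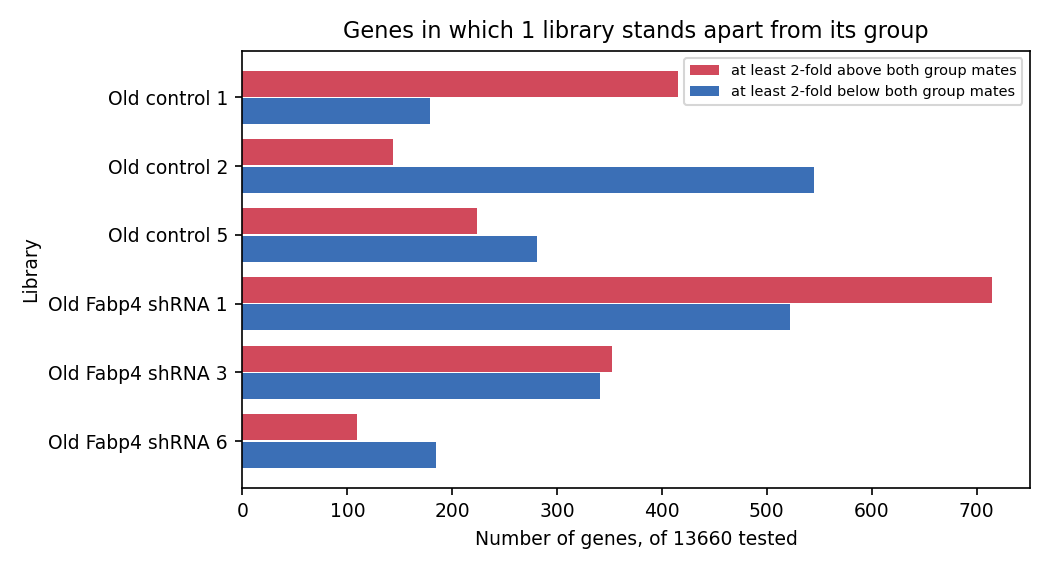
Number of genes, of 13660 tested, in which 1 library lay at least 2-fold above (red) or below (blue) both other libraries of its group. Labelled Fabp4 shRNA replicate 1 has 715 above and 522 below, and replicate 6 has the fewest, 109 and 185.

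Most departures of labelled replicate 1 did not take it back to the control range. Of the 715 genes above its group, 507 (70.9%) were also above all 3 controls and 206 (28.8%) lay within the control range. Of the 522 below its group, 446 (85.4%) were also below all 3 controls and 73 (14.0%) lay within the range. Seen from the other side, labelled replicates 3 and 6 were both above all controls in 1959 genes, and replicate 1 was above them too in 43.3% of these and below them in 22.001%. Where replicates 3 and 6 were both below all controls, in 1981 genes, replicate 1 was below too in 37.6% and above in 25.6%. With replicate 6 as the third library the matching shares were 63.5% and 8.38% of 1337 genes, and 60.1% and 10.7% of 1239 genes. With replicate 3 they were 60.3% and 17.5% of 1409 genes, and 53.9% and 18.0% of 1381 genes.

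Several circadian genes were highest in labelled replicate 1. The clock is a loop in which ARNTL (BMAL1) with CLOCK drives the Per and Cry genes that inhibit it, and PAR-domain factors such as DBP and TEF carry the rhythm to liver enzymes. Per3 was at 2.22, 0.860 and 5.84 CPM in control and 44.5, 0.993 and 2.22 CPM in labelled replicates 1, 3 and 6, so that replicate 1 was 4.25 log2 units above the nearer of its group. Dbp was at 0.601, 0.625 and 17.3 against 55.6, 0.526 and 5.16 CPM, with the next highest library being control replicate 5. Its annotation overlaps Sphk2, and that of Per3 overlaps Camta1. Usp2, a deubiquitinase with a strong daily rhythm, was at 2.34, 3.28 and 3.52 against 59.7, 4.03 and 7.88 CPM, and Tef at 49.0, 35.0 and 119 against 298, 46.3 and 76.4 CPM. Wee1, a kinase of the cell cycle under clock control, was at 0.841, 0.625 and 1.39 against 7.75, 1.87 and 2.44 CPM, where all labelled libraries were above the controls and replicate 1 the most. Arntl ran opposite, at 24.3, 20.2 and 7.11 CPM in control and 0.953, 30.4 and 8.76 CPM in the labelled libraries, lowest in replicate 1. Npas2, which can stand in for CLOCK, was at 9.20, 7.03 and 2.92 against 0.635, 7.95 and 0.832 CPM, and the repressor Nfil3 at 89.6, 103 and 24.3 against 18.3, 95.8 and 35.1 CPM, both also lowest in labelled replicate 1. Of 9 clock output genes, replicate 1 was above its group in 4 (44.4%, background 5.23%) and below in 0, and labelled replicate 3 was above in 1 and below in 2. Of 12 core clock genes, labelled replicates 1 and 3 were each above in 2 and below in 1, and control replicate 5 was above in 2 and below in 2. In the clock output list, control replicate 5 was above its own group in 3 and below in 2. The median log2 difference of the clock output list was 1.05 with labelled replicate 1 and -0.14 without it. It lay between 0.74 and 1.74 without any other library, the highest without control replicate 5. The sources used here give no time of tissue collection, and its part in these values was not tested.

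The RefSeq promoter windows of clock genes were searched for the E-box CACGTG, which ARNTL and other basic helix-loop-helix factors bind, and for the D-box TTATGNAA, which DBP and TEF bind, on both strands. The E-box was present in 2 of 10 core clock genes with a window (Cry1 and Per1) and 2 of 7 output genes (Bhlhe41 and Tef), against 8.09% of all genes. The D-box was present in 2 of 10 core genes (Per1 and Per3) and 1 of 7 output genes (Noct), against 3.99% of all genes. The stretches of Per3 and Tef are shown because these genes are far higher in labelled replicate 1 than in the others. That of Per3 lies at chr4:151044776-151044863 on the minus strand and that of Tef at chr15:81802506-81802591 on the plus strand, each with its match in capitals, the D-box in Per3 and the E-box in Tef.
Per3: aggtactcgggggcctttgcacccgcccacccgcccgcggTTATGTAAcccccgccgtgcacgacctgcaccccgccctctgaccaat
Tef: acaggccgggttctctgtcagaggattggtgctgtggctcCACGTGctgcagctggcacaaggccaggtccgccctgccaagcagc
The match ends 150 bases before the start site in Per3 and 121 bases before it in Tef. It says nothing of whether a factor was bound in these livers.

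Other genes named for standing highest above the group in labelled replicate 1 were of several kinds. Cyp7a1, the rate-limiting enzyme of bile acid synthesis, was at 21.2, 8.60 and 102 CPM in control and 162, 17.7 and 22.7 CPM in the labelled libraries, and control replicate 5 again came next. Cyp2a5, which oxidises coumarin and nicotine, was at 261, 354 and 309 against 2299, 206 and 278 CPM, with replicate 1 far above the other 5 libraries. Its relative Cyp2a4 had 8, 20 and 4 counts in control and 107, 3 and 2 counts in the labelled libraries, and reads could be shared between them. Upp2, a uridine phosphorylase, was at 88.3, 52.0 and 157 against 647, 25.1 and 41.1 CPM. Mt1, a metallothionein, was at 377, 1493 and 753 against 1048, 158 and 143 CPM, where labelled replicates 3 and 6 were below every control and replicate 1 was within their range. The same held for Grik5, at 26.03, 11.9 and 19.2 against 41.5, 7.65 and 7.15 CPM, except that replicate 1 was above the controls. Of 29 tested cytochrome P450 genes, replicate 1 was above its group in 4 and below in 1, where 5.23% and 3.82% of all genes were. Cyp2a22 and Mup19 also stood 2.68 and 3.29 log2 units above the group, both of them with near-identical copies, and for Mup19 control replicate 1 was higher still, and Zfp956 stood 2.30 units above it.

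Acute phase proteins, which the liver secretes in inflammation, were in many cases lowest in labelled replicate 1. Saa1, serum amyloid A, was at 1294, 151 and 32.5 CPM in control and 17.02, 1611 and 503 CPM in labelled replicates 1, 3 and 6, so that both groups were widely spread and replicate 1 was below every other library. Saa2, its near-identical neighbour, was at 516, 42.4 and 10.8 against 12.1, 755 and 210.3 CPM. Lcn2, lipocalin 2, was at 983, 321 and 52.2 against 12.1, 264 and 128 CPM, and Orm2, an orosomucoid, at 495, 145 and 23.3 against 9.08, 68.4 and 134 CPM. In each of these control replicate 5 was the lowest control. Replicate 1 was below its group in 13 of 24 acute phase genes (54.2%, background 3.82%), and control replicate 5 was below its own group in 11 of them. Hp, haptoglobin, among the highest of these messages, was at 17737, 12864 and 4755 against 3582, 6308 and 10669 CPM. Without replicate 1 the median log2 difference of the list was -0.24, against -0.54 with it.

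Stress and early response genes were low there as well. Replicate 1 was below its group in 10 of 20 heat shock genes (50%, background 3.82%), in 9 of 18 immediate early genes (50%) and in 11 of 25 genes of the unfolded protein and amino acid stress response (44%), and above it in 0 of each. Hspa1b, an inducible HSP70 with a near-identical copy in Hspa1a, was at 46.7, 59.9 and 1.86 CPM in control and 2.35, 167 and 18.4 CPM in the labelled libraries, with control replicate 5 as low as labelled replicate 1. Jun, a subunit of the AP-1 factor, was at 35.3, 39.9 and 16.6 against 9.02, 84.6 and 60.01 CPM, and Egr1 at 25.0, 43.3 and 14.2 against 4.89, 31.3 and 24.2 CPM. Junb, Egr1 and Gadd45b were -1.94, -2.28 and -2.41 log2 units from the nearer of replicates 3 and 6, and the chaperones Hsp90aa1, Hsph1 and Hspa4l -1.67, -1.62 and -1.59. In Jun the labelled replicates 3 and 6 were above every control and replicate 1 was below them. Creld2, an endoplasmic reticulum stress protein, was at 43.9, 119.6 and 22.6 against 9.59, 102 and 71.7 CPM. Pdk4, which blocks glucose oxidation in fasting, was at 47.5, 56.4 and 23.2 against 5.46, 247 and 68.4 CPM, and Cdkn1a, the p21 inhibitor of the cell cycle, at 36.6, 115 and 10.3 against 2.73, 59.8 and 19.6 CPM. Tubb2a, a tubulin, was at 119, 178 and 77.2 against 16.7, 168 and 155 CPM, with replicate 1 below all others. Mup14, whose reads may be shared with other Mup genes, was at 99.5, 116 and 128 against 20.0, 175 and 248 CPM.

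**Figure D5:**
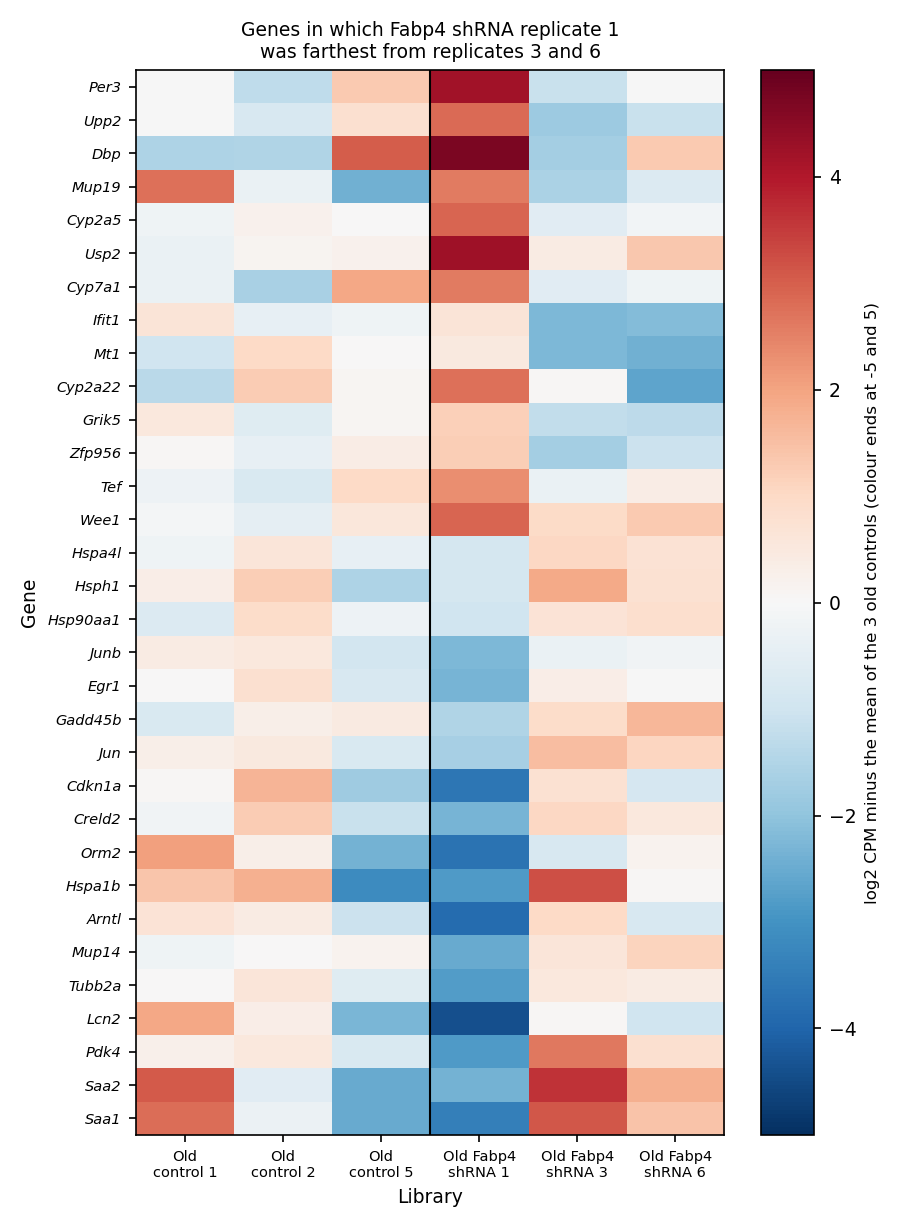
Log2 CPM minus the mean of the 3 controls, by colour, for the 32 genes named for the departure of labelled Fabp4 shRNA replicate 1 from replicates 3 and 6, with 1 column per library. Replicate 1 is red from Per3 to Wee1 and blue from Hspa4l to Saa1, and control replicate 5 is blue for Saa1, Saa2, Lcn2, Hspa1b and Orm2.

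Control replicate 5 and labelled replicate 1 shared part of their departures. Of the 281 genes in which control replicate 5 was below its group, labelled replicate 1 was below its own group in 67, which is 23.8% of the first list and 12.8% of the second, where labelled replicate 1 was below its group in 3.82% of all genes. Of the 224 genes in which control replicate 5 was above its group, 43 were also above in labelled replicate 1 (19.2% and 6.01%), where 5.23% of all genes were. For control replicate 1 the shares of its genes above and below that labelled replicate 1 shared were 8.43% and 5.59%, and for control replicate 2 they were 7.64% and 2.75%. For control replicate 5 the opposite direction was found in 8 of the genes above in labelled replicate 1 and in 19 of those below. In addition, 124 of the 715 genes above in labelled replicate 1 were below in control replicate 2. That control was below its group in 545 genes (3.99% of all genes). This overlap, in the opposite direction, was larger than the 67 and the 43 shared with control replicate 5.

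Leaving out labelled replicate 1 changed the comparison more than leaving out either of the other labelled libraries. With 2 labelled libraries against 3 controls, 859 genes were higher (6.1% of 14075) and 893 lower (6.34%) at an unadjusted p under 0.05, and 3 passed the adjusted p of 0.05 in edgeR. These 3 are named here after their values were seen. Ifit1 differed by -2.30 and A2ml1 by -1.73, each with an adjusted p of 0.0311 in edgeR. The third, Ugt1a7c, had 1, 0 and 0 counts in control replicates 1, 2 and 5 and 0, 85 and 26 counts in labelled replicates 1, 3 and 6, and shares its exons with other Ugt1a genes. Some genes had like values in this smaller comparison and some did not. Sqle, Hmgcs1, Acaa1b, Cyp2c29 and Spp1 had been picked by a small p with replicate 1 included, a choice that favours like values. Without replicate 1 their log2 differences were -1.40, -0.95, 1.35, 1.25 and -1.56, in that order. The log2 difference went from 2.97 to 0.97 for Usp2, from 2.06 to 1.17 for Wee1 and from -0.82 to -1.35 for Pfkfb1. With labelled replicate 3 left out instead there were 337 higher and 427 lower genes, and with labelled replicate 6 left out 327 and 320, and edgeR called 0 genes in both.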

How the data were processed

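The deposited gene counts were whole reads per gene; per the submitters' processing notes reads were aligned with HISAT2 to GRCm38.p6. The counting program, annotation and strand setting were not given in the sources used here. Per gene, the authors' deposited FPKM table was a fixed multiple of the counts for 100% of 10876 genes compared in 6 columns, within a relative tolerance of 0.001, and served only for an alternative. Samples were grouped by their treatment labels. Genes were filtered with filterByExpr, which left 13660 of 54532, and tested with edgeR 4.0.16 (TMM, robust quasi-likelihood, 4 residual degrees of freedom, R 4.3.3), with Benjamini-Hochberg adjustment over all of them. CPM values are TMM-scaled, the standard error is the log2 difference over the root of F, and the biological coefficient of variation was 0.313. Total counts of 14609431 to 17125440 set a floor of 3 counts, which covers counting error only. Gene positions came from GENCODE, which held 54409 of 54532 identifiers. The fit and the departure count were tested on simulated counts first.

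The members and the 50 gene lists were chosen with earlier results of these data known. The named genes were Fabp4, the 12 higher and 12 lower protein-coding genes with the smallest p at a mean of 1 CPM or more, the 4 smallest-p members of every list with at least 3 members at unadjusted p under 0.05, the 12 genes highest and 12 lowest in labelled replicate 1 at a mean of 5 CPM or more, and the 4 members farthest from the group in the 4 lists where replicate 1 departed most. Other genes were chosen after their values were seen, among them Acaa2, Cpt1a, Ehhadh, Cyp4a14, Fgf21, Msmo1, Mup7, Mup20, Clec4f, Trem2, Gpnmb, Oas1g, mt-Co1, Hp, Npas2 and Nfil3. Alternatives were DESeq2 1.42.0, limma 3.58.1 on counts and on FPKM, other scalings and filters, and leaving out each library. Some genes of the lists are not reported here by name.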

Additional observations from a re-analysis of the deposited data

How the results depend on the processing

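With edgeR 0 genes were called in either direction. DESeq2 called 9 higher and 16 lower, edgeR with no filter on low counts 65 and 77, and leaving out each library in turn gave 0 to 1 higher and 0 to 2 lower. Without the filter the fit took the spread of 87.5% of genes as known exactly from the trend. Of its 142 calls, 124 were of genes that were also tested with the filter, and 9 were at 0 in every library of 1 group. At an unadjusted p under 0.05 the 427 higher genes became 801 with library totals alone as the scaling, 844 with no filter and 213 to 859 with 1 library left out. The 449 lower genes became 199, 798 and 320 to 893. The cause of the shift with library totals was not tested. The 522 genes in which labelled replicate 1 was below its group became 338 under the stricter filter of 10 counts, where fewer genes are tested. DESeq2's size factors, upper quartile scaling, the fit without robust moderation, limma-voom and limma on FPKM left all 4 counts of genes within 1.5 times or at 0. Among the 90 named genes checked, none changed its sign under these alternatives. Apart from Fabp4, they had been picked by a small p in the main fit, a choice that favours a stable sign. Genes named only for the departure of labelled replicate 1 were not part of that check.

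Among the same 90 named genes, 1372 values kept their side of the adjusted p of 0.05 and 62, over 40 genes, passed it under an alternative. List medians moved by more than the spread between replicates in 47 values, over 23 lists, and by less in 752. The stricter filter left no heart muscle marker to give a median. No paired analysis was possible because the groups share only replicate number 1. The 3 livers a group, the unknown times of collection and the level of Fabp4 itself limit what this comparison can resolve.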

Other observations

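Hepatocytes near the central vein express glutamine synthetase, and those near the portal vein express urea cycle enzymes. Glul, glutamine synthetase, was at 992, 996 and 819 CPM in control replicates 1, 2 and 5 and 2023, 1088 and 1643 CPM in labelled replicates 1, 3 and 6, a log2 difference of 0.76 ± 0.29. All labelled libraries were above the controls. Slc1a2, a glutamate transporter of the same cells, was at 219, 294 and 208 against 600.4, 293 and 365 CPM (0.80 ± 0.31). Of 16 pericentral genes, 12 were positive and 2 were higher at an unadjusted p under 0.05 (background 3.13%), with a median of 0.22. That count was 0 without labelled replicate 1 and 0 without control replicate 5. Of 14 periportal genes, 12 were negative and 2, Arg1 and Apoc2, were lower (background 3.29%), with a median of -0.38. That count was 4 without labelled replicate 3 and 0 without control replicate 5.

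A pair of antioxidant genes separated the groups. Gpx1, glutathione peroxidase 1, was at 1231, 1525 and 808 CPM in control and 2109, 1952 and 2345 CPM in the labelled libraries (0.85 ± 0.30). Ephx1, the microsomal epoxide hydrolase, was at 199, 342 and 292 against 393, 444 and 659 CPM (0.85 ± 0.30). They were the 2 higher at an unadjusted p under 0.05 of 19 tested NRF2 target and antioxidant genes, whose median was 0.01. Over all genes 3.13% were higher at that p and 6.22% lay wholly above the controls, so a count of 2 is small. That count was 3 without labelled replicate 1 or control replicate 2, 1 without control replicate 1 or 5, and 0 without labelled replicate 6. Id1, a target of bone morphogenetic protein signalling, was at 8.84, 12.0 and 14.1 against 4.83, 3.27 and 6.32 CPM (-1.27 ± 0.33). With Hamp it made the 2 lower members of 19 iron and BMP response genes, where 3.29% of all genes were lower. That count was 4 without labelled replicate 1 and 1 without control replicate 5. Of 7 tested red blood cell markers and 18 immediate early genes, 0 had an unadjusted p under 0.05 in either direction, with medians of 0.28 and -0.16.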
